A study of Mus musculus with 3 samples.

Results

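The windows described here are 2 kb stretches of the mouse genome that carried 3 histone marks in fully-grown oocytes: H3K36me3, H3K4me3 and H3K27me3. A window was a member when its mean H3K36me3 level over 3 replicates was above 1 RPKM and the authors' category named both other marks, which chose 6132 of 1186323 valid windows (0.517%). They are 5.47% of the 112195 windows with both H3K4me3 and H3K27me3, whereas 31.8% of all valid windows were enriched for H3K36me3. The H3K36me3 values themselves chose the members, so their levels, and how often they pass the threshold, are given as a description. H3K36me3 was measured by native ultra-low-input ChIP-seq after MNase digestion in wildtype germinal vesicle (GV) oocytes of the C57BL6/Babr strain, from mice of 25 days, with about 280 oocytes in each of the 3 pools. The pools form a single group without treatment. The methods name a smaller amount of antibody for replicate 2. The calls of H3K4me3 and H3K27me3 are 1 per window, without replicates, and come from other libraries of the same laboratory, so marks on the same nucleosome, on 2 alleles or in different oocytes cannot be told apart.

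H3K36me3 is deposited in the wake of elongating RNA polymerase, and in the growing oocyte it lies over transcribed gene bodies. It is thought to help recruit de novo DNA methylation there, though the authors state that this link may be indirect. H3K4me3 marks active promoters and in oocytes also spreads into broad domains over untranscribed DNA, and H3K27me3, the product of Polycomb repressive complex PRC2, covers silent genes and intergenic stretches. H3K36me3 on a histone tail impedes PRC2, and H3K4me3 and H3K36me3 are mostly found apart, so the calls of a member window join marks that are usually described apart.

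Replicates 1 to 3 had 7888140, 2692510 and 3166564 reads in valid windows, so that a value above 1 took 8, 3 and 3 reads. RPKM, the authors' name for reads scaled to depth and window length, was a whole multiple of the value of 1 read (0.136, 0.396 and 0.338 in replicates 1 to 3). Members held 47604, 25674 and 24381 reads in all. The oocyte label was checked on 16 oocyte genes, which averaged 2.12 ± 0.24 RPKM (SD, n = 3), and on 12 granulosa cell genes, which averaged 0.916 ± 0.10 (SD, n = 3), against 1.25 ± 0.03 (SD, n = 3) over all protein-coding genes.

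Sequences are shown for gene starts and for stretches outside genes, because the members were rich in CpG, the dinucleotide that is the substrate of DNA methylation. None is shown from inside genes away from starts, where most members lay. Below are the 250 bases before the start of 3 genes whose start windows were members, from RefSeq on GRCm38.p6. They lie at chr2:28699911-28700160 (Ak8, 13 CpG), chr2:28467816-28468065 (Mrps2, 20 CpG) and chr5:140723877-140724126 (Amz1, 8 CpG), all on the plus strand, with 160, 65 and 126 of their bases inside the member window. They are followed by the 200 bases richest in CpG from each of 3 long runs of members without an annotated exon, read from the plus strand of the GRCm38.p6 genome and chosen after the values were seen. Those lie at chr19:37260210-37260409 (9 CpG), chr5:120229149-120229348 (15 CpG) and chr9:30143270-30143469 (8 CpG). The whole runs held 25.5, 36.4 and 18.2 CpG per window in that order. The mean was 27.9 over all members and 16.6 over all valid windows. Capitals mark every CG.
Ak8: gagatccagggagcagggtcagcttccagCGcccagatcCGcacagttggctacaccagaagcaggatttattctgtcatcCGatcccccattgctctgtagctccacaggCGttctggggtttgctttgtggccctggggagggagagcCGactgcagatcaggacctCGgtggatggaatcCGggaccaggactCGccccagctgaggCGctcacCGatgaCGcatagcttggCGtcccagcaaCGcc
Mrps2: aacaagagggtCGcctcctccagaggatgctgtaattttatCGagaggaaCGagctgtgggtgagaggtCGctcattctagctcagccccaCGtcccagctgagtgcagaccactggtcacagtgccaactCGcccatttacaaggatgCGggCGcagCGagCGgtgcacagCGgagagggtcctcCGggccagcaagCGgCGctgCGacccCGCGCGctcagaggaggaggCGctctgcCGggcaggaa
Amz1: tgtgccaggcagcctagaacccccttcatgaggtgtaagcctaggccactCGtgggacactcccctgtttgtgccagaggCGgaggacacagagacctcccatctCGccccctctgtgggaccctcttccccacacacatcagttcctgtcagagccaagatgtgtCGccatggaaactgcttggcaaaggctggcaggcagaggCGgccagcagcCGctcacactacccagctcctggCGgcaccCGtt
Run near Ide: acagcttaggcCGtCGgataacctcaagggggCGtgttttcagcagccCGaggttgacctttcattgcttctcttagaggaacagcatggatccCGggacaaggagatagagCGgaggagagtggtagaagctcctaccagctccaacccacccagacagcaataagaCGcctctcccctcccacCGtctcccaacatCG
Run near Rbm19: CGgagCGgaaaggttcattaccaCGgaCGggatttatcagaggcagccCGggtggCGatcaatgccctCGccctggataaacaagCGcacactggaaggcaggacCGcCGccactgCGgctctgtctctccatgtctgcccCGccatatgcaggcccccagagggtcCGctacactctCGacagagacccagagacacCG
Run near Ntm: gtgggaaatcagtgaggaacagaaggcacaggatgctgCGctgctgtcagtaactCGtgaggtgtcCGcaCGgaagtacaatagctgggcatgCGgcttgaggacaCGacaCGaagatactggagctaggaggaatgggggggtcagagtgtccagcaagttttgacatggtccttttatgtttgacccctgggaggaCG
The motif CG (the same on either strand) is present in 92.1% of the 32817 RefSeq promoter stretches of 250 bases, with a median of 6 copies, and 37.8% of them hold at least 10. Of the 208 gene starts in members, 149 were matched to this table by symbol. Insr has no entry.

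The level of H3K36me3 in members was low and close to the threshold that chose them. Replicates 1, 2 and 3 had means of 1.05, 1.66 and 1.35 RPKM over the members. The median of the window means was 1.23, and 53.2% of the members had a mean of at most 1.25. A mean above 2 was reached by 409 members (6.67%), against 52.3% of the windows with H3K36me3 alone. The members just inside the threshold, chr1:186694001-186696000 and chr2:20338001-20340000, each had 0.407, 1.59 and 1.02 RPKM in replicates 1 to 3, a mean of 1.003. The windows just outside it, both on X, each had 0.679, 1.98 and 0.338, a mean of 0.9998. The loss or gain of 1 read in any replicate moves such a window across.

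The replicates called different members. Above 1 in all 3 replicates were 1196 members (19.5%), against 62.1% of all enriched windows. The other 4936 rested on fewer replicates: 1601 on replicates 2 and 3, 885 on replicates 1 and 3, and 727 on replicates 1 and 2. Replicate 2 by itself carried 1123 members, 18.3% of them against 2.72% of all enriched windows. Replicate 3 by itself carried 548 and replicate 1 by itself 52. There were 36 members with no read at all in replicate 1, and 267 and 508 in replicates 2 and 3. The deepest library, replicate 1, had the lowest mean over members and the fewest empty members. With reads drawn down to the shallowest replicate, 7082 windows were members, and 15.5% of them were above 1 in all 3 replicates. Beyond these counts, the part that depth, antibody amount and PCR copies have in the spread between replicates was not tested. Members above 1 in all replicates had 1.60, 1.93 and 1.90 RPKM in replicates 1 to 3, and the others 0.922, 1.59 and 1.21.

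Because the same values chose the windows, the level was measured a second way: windows with both other marks were chosen by the mean of 2 replicates above 1, and the level was read in the replicate left out. With replicate 1 left out, 8318 windows were chosen and had 0.790 RPKM there. With replicate 2 left out, 6093 windows had 0.867 RPKM, and with replicate 3 left out, 9632 windows had 0.670, a mean of 0.776 ± 0.099 (SD, n = 3). All 3 values were below the threshold of 1. Only 30.8% ± 4.5 (SD, n = 3) of these windows passed 1 in the replicate left out. Windows chosen the same way without any other mark kept 1.99, 2.05 and 2.21 RPKM and passed in 82.6% ± 6.2 (SD, n = 3) of cases. Windows with H3K36me3 and H3K4me3 kept 1.55 ± 0.05 RPKM (SD, n = 3), and those with H3K36me3 and H3K27me3 kept 1.54 ± 0.09 (SD, n = 3). They passed in 64.6% and 58.2% of cases. Against H3K36me3 alone, the log2 ratio for all 3 marks was -1.43 ± 0.25 (SD, n = 3), or 0.371 of the level.

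The H3K36me3 of the windows chosen above 1 by 2 replicates was nonetheless above that of windows with both other marks that were not chosen. Those windows, with a mean of at most 1 in the other replicates, had 0.469, 0.425 and 0.299 RPKM in the replicate left out. There they passed 1 in 10.1% ± 4.4 (SD, n = 3) of cases. In each replicate they lay below the windows chosen above 1, and no value of the first group reached the lowest of the second. The log2 ratio was 0.98 ± 0.21 (SD, n = 3), or 1.97-fold. Both differences had the same direction in 3 of 3 replicates, with p = 0.25 in an exact two-sided sign-flip permutation test over replicates, the smallest p that 3 replicates allow, and 0.25 after Benjamini-Hochberg adjustment over 5 contrasts. Without replicate 1 the second ratio was 0.62, and without replicate 3 it was 0.59, with windows then chosen by a single replicate.

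**Figure D1:**
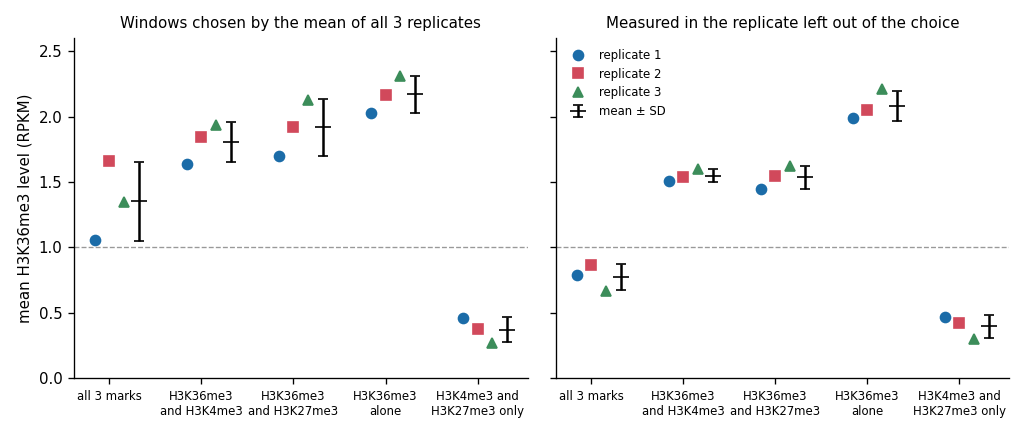
Mean H3K36me3 level in RPKM by window class, with a point per replicate and the mean ± SD beside it; on the left in windows chosen by the mean of all 3 replicates, on the right in the replicate left out of the choice. The windows with all 3 marks have 1.35 on the left. On the right, windows with both other marks chosen by 2 replicates, a different set, have 0.776, below the dashed threshold of 1. The windows with H3K36me3 alone are near 2.08 in the replicate left out.

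The surroundings of the members were next examined, since the windows beside them were not used by the rule. Over 10 kb on either side, without members themselves, the level was 0.888, 0.815 and 0.848 RPKM in replicates 1 to 3, and 27.5% of these windows were enriched. Around windows with H3K4me3 and H3K27me3 only, it was 0.509, 0.457 and 0.367 RPKM, with 6.41% enriched. The groups did not overlap, and the log2 ratio was 0.95 ± 0.23 (SD, n = 3; 3 of 3 replicates, exact sign-flip p = 0.25, adjusted 0.25). Without replicate 3 it was 0.61. In each replicate the level beside members was below that of all valid windows (0.903, 0.900 and 0.903 RPKM, with 31.8% enriched). It was also below the 1.91 ± 0.09 RPKM (SD, n = 3) beside windows with H3K36me3 alone. The surroundings differed between the sides of the split: 1.22 ± 0.07 RPKM (SD, n = 3) and 46.6% enriched beside members above 1 in all replicates, and 0.765 ± 0.040 (SD, n = 3) and 23.1% enriched beside the others.

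A profile was drawn across the windows with both other marks chosen by 2 replicates, a different set from the members. Read in the replicate left out, it was a broad trough with a small rise at its centre. The level was 0.776 ± 0.099 RPKM (SD, n = 3) in the chosen window. It was 0.750 and 0.757 in the windows 2 kb before and after, lower than the chosen window in each of the 3 replicates. At 20 kb it was 0.948 and 0.937, and at 60 kb 1.12 and 1.11. Windows with H3K36me3 and H3K27me3 instead had a peak, from 1.54 in the window to 1.36 in the next and 0.993 at 60 kb before it. Windows with both other marks and no H3K36me3 call rose from 0.398 to 0.938 at 60 kb.

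**Figure D2:**
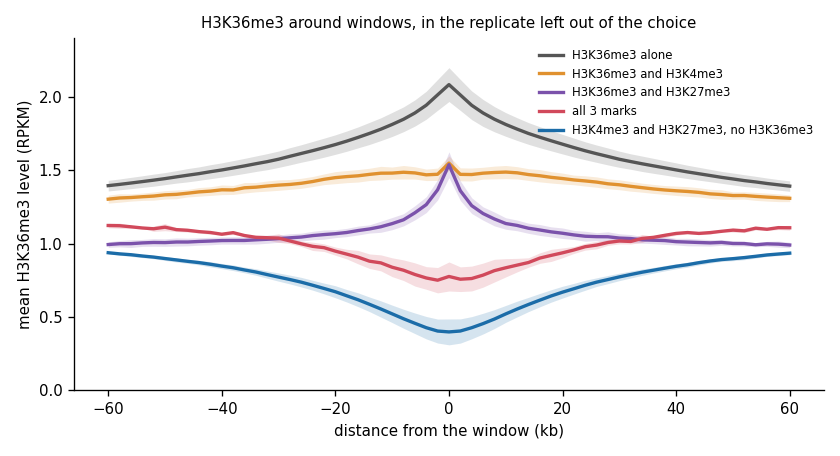
Mean H3K36me3 level in RPKM against distance from the window in kb, in the replicate left out of the choice; lines are means and bands the SD over 3 replicates, by window class. The line for all 3 marks is of windows with both other marks chosen by 2 replicates. It dips to about 0.750 beside the window and climbs to 1.12 at 60 kb, with a central rise that is small against the peak of the H3K36me3 and H3K27me3 class.

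Members lay mostly among windows that carried a different set of marks. Of the 12240 valid windows adjacent to members, 34.5% had H3K4me3 and H3K27me3 without H3K36me3, 13.6% H3K4me3 alone, 13.5% H3K36me3 and H3K27me3, 13.3% H3K27me3 alone and 11.2% all 3 marks. H3K36me3 alone was the rarest neighbour, at 4.45%. Of the 6108 members with both neighbours valid, 3015 (49.4%) had no enriched neighbour, 2062 (33.8%) stood at an edge with an enriched window on 1 side, and 1031 (16.9%) had enriched windows on both sides. No enriched neighbour was found for 14.2% of windows with H3K36me3 and H3K4me3, and 37.9% stood at an edge. With H3K36me3 and H3K27me3 these shares were 26.4% and 26.9%, and with H3K36me3 alone 4.72% and 18.3%. With H3K4me3 and H3K27me3 only they were 91.7% and 7.63%. H3K4me3 and H3K27me3 without H3K36me3 lay on both sides of 918 members (15.03%). It lay on 1 side of 616 members (10.1%) that had, on the other side, H3K36me3 without the full set of marks. The share at an edge was 30.4%, 33.8% and 33.8% in calls from replicates 1, 2 and 3 alone. Among members above 1 in all replicates 20.5% had no enriched neighbour, 41.0% had 1 and 38.5% had both, against 56.4%, 32.0% and 11.6% of the other members.

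**Figure D3:**
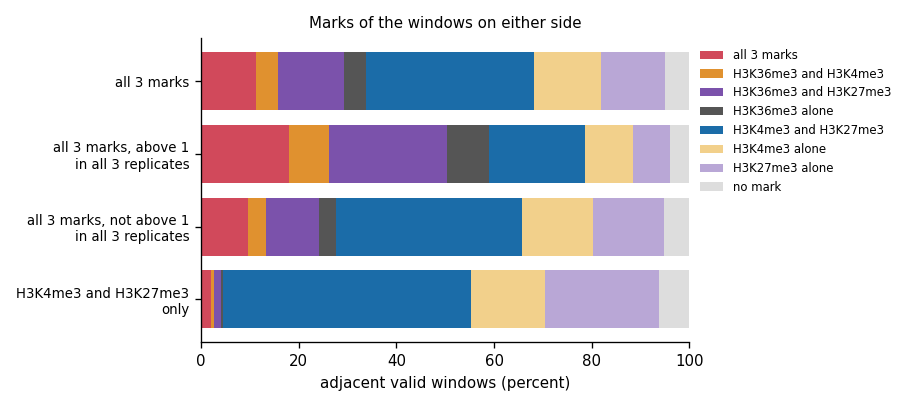
Marks of the valid windows adjacent to members, in percent of adjacent windows, for all members, for both sides of the split, and for windows with H3K4me3 and H3K27me3 only. Members above 1 in all replicates had H3K36me3 and H3K27me3 beside them in 24.2% of cases and H3K4me3 and H3K27me3 in 19.6%, while the other members had the former in 10.9%.

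Single windows made up most of the set. Members formed 5446 runs, of which 4874 were a single window (79.5% of the members), 483 had 2 windows and 70 had 3, and the longest had 6 windows. This longest run, chr19:37250001-37262000, lay outside genes, 6.74 kb from Ide, which encodes insulin-degrading enzyme. Its windows had 2.35, 2.97 and 0.169 RPKM in replicates 1 to 3 (104, 45 and 3 reads), so 1 replicate was nearly empty where the others were high. Replicate 3 was also low in the 20 kb before the run, with 5 reads against 111 and 38, but had 43 reads in the 20 kb before that, against 100 and 29. In the 20 kb after the run it had 1.08 RPKM against 2.87 and 3.57, and in the next 20 kb 1.56 against 3.19 and 4.72. None of its 6 windows was above 1 in all replicates.

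The next 4 runs had 5 windows each and were less uneven. In Itga7, the gene of a laminin-binding integrin subunit (chr10:128934001-128944000), the replicates had 1.17, 2.70 and 1.35 RPKM. In Rnf144b, which encodes a ubiquitin ligase (chr13:47236001-47246000), they had 1.30, 1.66 and 1.90 RPKM. The remaining runs were outside genes: 1.39, 1.74 and 1.22 RPKM at chr5:120222001-120232000, 23.0 kb from Rbm19, and 0.652, 2.22 and 1.15 RPKM at chr9:30134001-30144000, 171 kb from Ntm. All 4 had a mean above 1, but in the last run replicate 1 was below it. No single window of that run was above 1 in all replicates. In the other runs some windows were and some were not, as at chr5:120226001-120228000 with 1.22, 2.77 and 0 RPKM.

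By annotation (GENCODE M21), members lay in genes more often than windows in general. The midpoint was in a gene for 3751 members (61.2%), against 48.9% of valid windows, 47.7% of windows with H3K4me3 and H3K27me3 only and 77.3% with H3K36me3 alone. The share of members lay between the 59.2% of windows with H3K36me3 and H3K27me3 and the 67.0% of those with H3K36me3 and H3K4me3. Calls from replicates 1, 2 and 3 alone gave 58.2%, 52.2% and 54.7%. Introns held 51.2% of the members and exons 9.95%. Members above 1 in all replicates were in genes in 69.6% of cases and the others in 59.1%. In protein-coding genes of at least 20 kb, members were 0.665% of the windows in the first 10% of the gene, between 0.502% and 0.602% in the next 6 parts of that size, and between 0.733% and 0.807% in the last 3. Windows with H3K36me3 and H3K4me3 fell along the gene, from 12.95% to 5.03%.

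CpG content followed the other marks. Members had 27.9 CpG per window, near the 27.8 of windows with H3K4me3 and H3K27me3 only and above the 17.1 of H3K36me3 alone and the 16.6 of all valid windows. The same order held away from starts: in genes without a start in the window, members had 28.9 CpG, H3K4me3 and H3K27me3 only 28.9, and H3K36me3 alone 18.1. Outside genes the values were 23.4, 23.0 and 13.3. At gene starts members had 60.4 CpG, below the 67.4 of H3K4me3 and H3K27me3 only and the 80.3 of H3K36me3 and H3K4me3. Repeats covered 17.5% of the bases of members and 30.8% of those of all valid windows. Counts of CpG belong to the reference sequence and have no replicate error.

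Among protein-coding genes, 1695 of 20452 (8.29%) held at least 1 member. Exactly 1 member was held by 1036 genes, 2 to 4 by 531, and at least 10 by 31. These genes were not generally covered by H3K36me3. In those with at least 10 windows (1291 genes), a median of 22.2% of the windows that were not members was enriched, against 5.97% in 2764 genes with windows of both other marks but no member, and 90.5% in 6036 genes with neither. The groups also differed in length, with medians of 40, 27 and 21 windows in that order. In the genes with a member, the mean level of the other windows was 0.943, 0.892 and 0.912 RPKM in replicates 1 to 3.

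The 5 annotated genes with the most members were mostly very long. Gm20388 had 32 members among 2158 windows; it is an annotated locus of 4435 kb on chromosome 8 that takes in 71 other protein-coding genes, so its members may belong to those. Cdh13, which encodes a cadherin anchored to the membrane by lipid (chr8:118283733-119324921), had 31 members of 517 windows, 9 of them above 1 in all replicates. They had 1.18, 1.27 and 1.58 RPKM in replicates 1 to 3, near the 1.12, 0.990 and 1.20 of the rest of the gene. Sox5, a transcription factor gene, had 19 of 473 windows, of which 2 were above 1 in all replicates, and Wwox, an oxidoreductase gene, 17 of 454, of which 5 were.

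Ppp1r16b was the shortest of these 5 genes. It encodes a regulatory subunit of protein phosphatase 1 and spans 101 kb (chr2:158665398-158766334). Members were 18 of its 50 windows, against 7 with H3K4me3 and H3K27me3 only, and 10 of the 18 were above 1 in all replicates. They had 1.56, 2.00 and 1.69 RPKM in replicates 1 to 3, and single members had means from 1.12 to 2.96. The gene's other windows had 1.21, 0.855 and 0.888 RPKM.

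Gene starts were next considered, where H3K4me3 marks promoters. Members held 208 of 20788 protein-coding gene starts (1.00%), in 204 windows, and 3.33% of members held a start against 1.65% of valid windows (3.58%, 4.50% and 3.83% in calls from replicates 1, 2 and 3 alone). For windows with H3K4me3 and H3K27me3 only the share was 4.73%. Of the 204 windows, 25 were above 1 in all replicates. A start was in 2.09% of the members above 1 in all replicates and in 3.63% of the others. In the replicate left out of the choice, windows at starts had 0.669, 0.726 and 0.479 RPKM and windows away from starts 0.795, 0.871 and 0.679. The starts were lower in each of the replicates, with a log2 ratio of -0.34 ± 0.14 (SD, n = 3; exact sign-flip p = 0.25, adjusted 0.25). The ratio was -0.16 at a threshold of 1.5, -0.028 at a threshold of 2 (exact sign-flip p = 0.75) and -0.44 ± 0.51 from medians (exact sign-flip p = 0.5), so a lower level at starts was not held in every replicate under the last 2 settings.

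The levels on either side of these starts were close to each other. The 10 kb downstream had 1.01, 0.963 and 1.00 RPKM in replicates 1 to 3, and the 10 kb upstream 0.996, 0.945 and 0.983. The log2 ratio of downstream to upstream was 0.013, 0.027 and 0.029, a mean of 0.023 ± 0.009 (SD, n = 3; exact sign-flip p = 0.25, adjusted 0.25), and it changed sign in windows with at least 1 read in every replicate. Leaving out replicate 1 gave 0.13, leaving out replicate 2 also gave 0.13, and leaving out replicate 3 gave 0.044. At the 3317 starts with H3K36me3 and H3K4me3 the level was 2.03 ± 0.10 RPKM (SD, n = 3) downstream and 1.42 ± 0.03 (SD, n = 3) upstream. Enriched windows lay within 10 kb on both sides of 92 of the 208 starts, downstream only at 39, upstream only at 29, and on neither side at 48. Of the windows in these flanks, 36.1% downstream and 34.4% upstream were enriched, near the 31.8% of all valid windows. At starts with H3K4me3 and H3K27me3 only these shares were 10.8% and 9.98%.

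**Figure D4:**
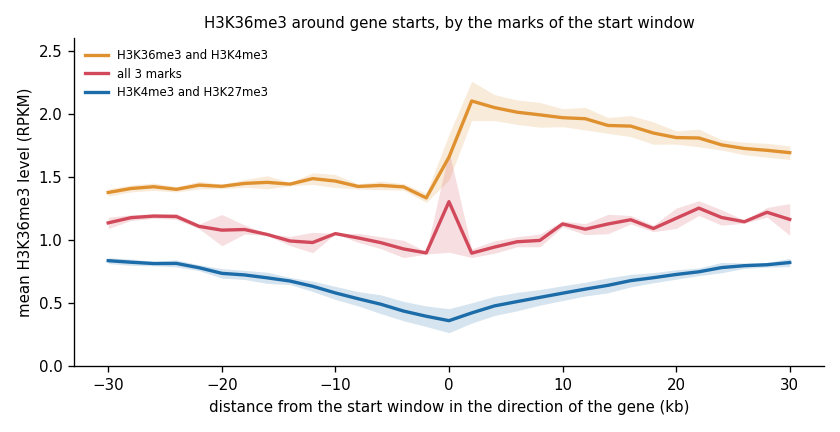
Mean H3K36me3 level in RPKM against distance from the start window in kb, in the direction of the gene; lines are means and bands the SD over 3 replicates. The value at 0 belongs to the windows that the rule chose; the line for all 3 marks climbs away from the start on both sides, with means over 10 kb of 0.990 downstream and 0.975 upstream, while that for H3K36me3 and H3K4me3 steps up to 2.03.

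The start windows above 1 in all replicates with the highest means belonged to genes of varied function. Ak8, which encodes an adenylate kinase (start at chr2:28700164), had 1.90, 4.36 and 3.05 RPKM in its start window, and 7 members in all. Spaca9, a gene of a sperm acrosome protein, starts on the other strand in the window next to it (chr2:28699727), and its start window had 2.04, 1.19 and 2.37 RPKM. Insr, the insulin receptor gene (chr8:3279617, minus strand), had 2.99, 2.77 and 3.38 RPKM, and 61 of its 78 windows were enriched. All 5 windows on either side of the Insr start were enriched too.

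Mrps2, the gene of a mitochondrial ribosomal protein (chr2:28468066), had 2.99, 2.77 and 3.05 RPKM in its start window. Both of the gene's 2 windows were enriched, and the one after the start window was the only enriched window in the 10 kb downstream. None was enriched in the 10 kb upstream, and the means were 0.660 RPKM downstream and 0.321 upstream. Spdef, an ETS transcription factor gene of secretory epithelia (chr17:27728955), had 3.39, 3.57 and 1.69 RPKM, with all 5 windows on either side enriched. Wnt2b, a Wnt ligand gene (chr3:104961921), had 1.49, 2.77 and 2.03 RPKM and lay in the same kind of surroundings. Bend7, a BEN domain gene (chr2:4717831), had 1.63, 2.77 and 2.03 RPKM, with 5 enriched windows downstream and 1 upstream. On X, Pnma3 (X:73064787) had 2.31, 1.98 and 2.37 RPKM and Timp1, an inhibitor of metalloproteinases (X:20870166), 1.49, 1.59 and 3.05. These windows held from 3 to 25 reads in a replicate.

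Start windows that missed 1 in some replicate were less even. Meis3, a homeobox gene, had 1.77, 3.17 and 0.677 RPKM, and Amz1, a metallopeptidase gene, had 0.136, 4.36 and 1.02 RPKM, which is 1 read, 11 reads and 3 reads. Of the pathway genes considered, 3 had such a start window: Gdf6, a ligand of the BMP family, with 0.815, 1.19 and 1.02 RPKM, and the receptor tyrosine kinase genes Fgfr3, with 0.543, 1.59 and 1.02, and Erbb2, with 0.272, 1.59 and 1.35. Replicate 1 was below 1 in each of these 3, and Insr was the only other start from those lists. Wnt2b, described above, is not on the list of Wnt pathway genes used here and enters none of its counts.

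**Figure D5:**
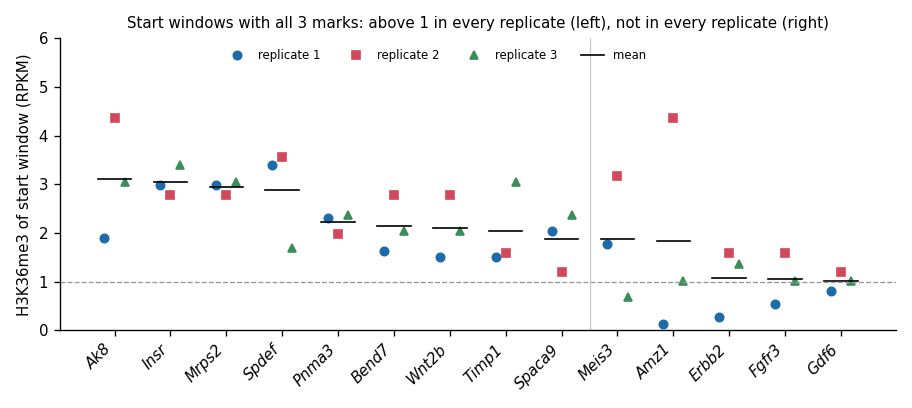
H3K36me3 level in RPKM of start windows with all 3 marks, with a point per replicate and a bar at the mean. The 9 genes on the left are above the dashed threshold of 1 in every replicate, and the 5 on the right are not, with Amz1 between 0.136 and 4.36.

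The 2 members with the highest means, picked after their values were seen, had H3K36me3 in all replicates. One lay in Zfp180, a zinc finger gene (chr7:24104001-24106000), with 10.3, 11.1 and 9.81 RPKM, 79.8% of it exonic. It had H3K36me3 alone on 1 side, at 9.89 RPKM, and H3K36me3 and H3K27me3 on the other, at 4.06. The other lay in Cript (chr17:87026001-87028000), with 6.11, 6.34 and 9.81 RPKM, and its neighbours had 0.358 and 1.89.

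Developmental genes were then examined by list, read against the 8.29% of protein-coding genes that hold a member, and described by counts without a test. Of 42 lineage transcription factor genes, 7 held a member (16.7%), 8 windows in all, of which 1 was above 1 in all replicates. That window was in Eomes, a T-box gene of the trophoblast and endoderm, with 2.85, 1.98 and 3.05 RPKM. The members in Pax3 (0.407, 5.15 and 0 RPKM) and Gata6 (0.543, 4.36 and 0 RPKM) rested on replicate 2 alone. The lineage genes also had 179 windows with both other marks and no H3K36me3 call, so members were 4.28% of their windows with both other marks, against 7.24% over all protein-coding genes.

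The shares were larger for the Wnt, TGF-beta, FGF and ion channel genes, whose genes are also longer than the median of 9 windows. Of the Wnt pathway genes, 10 of 42 (23.8%; median of 14.5 windows) held 18 members, 7 of them above 1 in all replicates. Dkk3, a Dickkopf family gene, had 3 of these with means of 1.67, 1.85 and 1.58 RPKM in replicates 1 to 3. Tcf7l1, a transcription factor of the pathway, had 2 of its 3 above 1 in all replicates, and the 4 members in the ligand gene Wnt5a (0.781, 2.08 and 0.761 RPKM) included none. Of the TGF-beta and BMP genes, 9 of 41 (22.0%; median of 16 windows) held 12 members, and none was above 1 in all replicates. Nog, which encodes a BMP antagonist, had its only window among these, at 0.815, 0 and 3.05 RPKM.

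Of the FGF and receptor tyrosine kinase genes, 11 of 44 held 28 members, 5 of them above 1 in all replicates; 10 of the 28 were in Fgfr2, whose annotated span of 1463 windows takes in 29 other protein-coding genes. Voltage-gated ion channel genes were 9 of 36 with 27 members, 2 of them above 1 in all replicates. Cacna1b, a calcium channel gene, had 8 of these, at 1.15, 1.24 and 1.481 RPKM, and none was above 1 in all replicates. The genes of both lists were long, with medians of 29.5 and 89.5 windows. As a share of the windows of a list, members were 0.582% for the FGF and receptor genes and 0.580% for the channels, below the 0.667% over all protein-coding genes. The same share was 2.00% for the Wnt genes, 1.54% for the lineage factors and 1.01% for the TGF-beta and BMP genes, above it. As a share of the windows with both other marks, members were 7.66% for the Wnt genes and 7.79% for the TGF-beta and BMP genes. That share was 5.34% for the FGF and receptor genes and 5.90% for the channels, against 7.24% over all protein-coding genes.

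The remaining lists held members in shares near or under the 8.29% of all protein-coding genes. Hedgehog and Notch genes held them in 2 of 28 (7.14%), genes of Polycomb, COMPASS and H3K36 methylation enzymes in 3 of 48 (6.25%), imprinted genes in 3 of 55 (5.45%) and granulosa cell genes in 1 of 12 (8.33%). None of the 16 oocyte genes held a member among 138 windows, of which 3 had H3K4me3 and H3K27me3. Among the imprinted genes, both members in Rasgrf1 were above 1 in all replicates, with means of 2.10, 3.57 and 1.69 RPKM. Over the genes of all lists, 19 of 106 members (17.9%) were above 1 in all replicates, against 19.5% of all members.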

How the data were processed

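The authors mapped the reads to GRCm38 (Bowtie2 2.2.9, per the labels) and counted them in 2 kb windows, leaving out windows with extreme input. Whether PCR duplicates were removed is not given in the sources used here. The deposited RPKM values are linear and per replicate, and were treated as proportional to CPM, since 100% of them were whole multiples of the value of 1 read (within 0.01 read). A second deposited table names the marks of each window. Its H3K36me3 call matched a mean RPKM above 1 with 0 differences.

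Members and lists were chosen with earlier results of these data known. Genes came from GENCODE M21, with a window placed by its midpoint, and CpG was counted in the GRCm38.p6 genome. Levels were compared as log2 ratios of mean RPKM within each replicate, without pseudocount, by exact sign-flip tests over replicates, checked on simulated data (Python 3.11.15, numpy 2.4.6, pandas 2.3.3). Separate cultures or animals are not named for the replicates, so the spread may be partly technical. Values of single windows rest on few reads, which may include PCR copies.

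Named were the 10 genes with the highest start windows above 1 in all 3 replicates (1 of them is not reported here), the 5 genes with most members, the 5 longest runs, list genes with a start in a member, and windows at the threshold. Other list genes were picked after their values were seen. Promoters were printed for the first 4 of the 10 genes and the 2 highest starts not above 1 in every replicate, where the table has an entry outside annotated exons, which left out Meis3. Alternatives were other thresholds, pooled or drawn-down reads, log values, medians, a filter on reads, other flanks and annotations, and leaving out each replicate.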

Additional observations from a re-analysis of the deposited data

How the results depend on the processing

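Of 41 recomputed level contrasts, 40 kept their direction. The exception was downstream against upstream of gene starts, which went from 0.023 to -0.083 (log2) with at least 1 read in each replicate, and ranged up to 0.36 at a threshold of 2. For windows chosen by the other replicates, the ratio against H3K36me3 alone ranged from -1.89 to -0.75. Their ratio against both other marks ranged from 0.43 to 1.82, and the ratio beside members from 0.43 to 1.61. The last 2 could not be given as medians, because the median of their comparison windows was 0 in some replicates. Samples could not be paired between groups, because they form a single group and there is no second group whose replicate numbers could be matched. The contrasts compare window classes within each replicate, so they are paired by replicate.

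Members numbered 1448 at a threshold of 1.5 and 409 at 2. At these thresholds 66.6% and 73.3% lay in genes, 2.28% and 2.2% held a start, and CpG was 28.5 and 29.8 per window. An enriched window on 1 side was found for 38.6% at 1.5. Protein-coding genes alone held 54.0%, starts of all annotated genes were in 5.89% and starts of all coding transcripts in 8.63%. Leaving out each replicate gave 6093 to 9632 members, 24.8% to 44.7% above 1 in both remaining replicates, 56.5% to 60.7% in genes, 3.13% to 4.16% with a start, 30.2% to 34.1% at an edge and 27.4 to 28.0 CpG. Of 51 recomputed counts and shares, 29 moved by less than the spread between single replicates, or by less than 1.5 times for the number of members. The cause was not tested where they moved further. A single read decides membership near the threshold, and the exact sign-flip test over 3 replicates cannot pass 0.05.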

Other observations

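Starts of noncoding genes were also found in members. Antisense genes had 49 of 2914 starts in a member (1.68%), lincRNA genes 46 of 5102 (0.902%) and processed pseudogenes 22 of 9035 (0.243%), against 1.00% of protein-coding starts. A window can hold starts of several genes.

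Along the chromosomes, members were from 0.2505% of valid windows on X to 0.732% on chromosome 19. As a share of the windows with both other marks they ranged from 4.28% on chromosome 3 to 6.98% on chromosome 8, with 5.91% on X. The share of members above 1 in all replicates was lowest on chromosome 16, at 14.8%, and highest on chromosome 4, at 23.6%. Replicate 2 had a higher mean over members than replicates 1 and 3 on 20 of 20 chromosomes.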
